A study of Homo sapiens with 3 samples.

Results

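Genes with a LINC symbol are long non-coding RNA (lncRNA) genes that were named for lying between protein-coding genes. A gene was taken as a LINC gene when GENCODE gives it the biotype lncRNA and a symbol made of LINC and digits, and 2252 of the 61193 genes measured met this rule. HEK293T cells, which derive from human embryonic kidney and express the large T antigen of SV40, were grown in flasks without any treatment and collected 24 h after seeding. From RNA of 3 independent biological replicates, QuantSeq 3′ libraries were prepared, in which priming at the poly(A) tail yields reads from near the 3′ end of the transcript. All samples are of a single condition and of 1 cell line, so no conditions were compared and every value below is a description with no test. In the sample labels the material is called genomic DNA, although the methods of the study describe total RNA.

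LINC RNAs are made by RNA polymerase II, and many are spliced and polyadenylated like mRNAs. They tend to be less abundant than mRNAs and more restricted to single tissues, and most have no assigned function. Several of those that have been studied act in the nucleus on nearby genes or chromatin, host small or circular RNAs, or bind proteins and microRNAs in the cytoplasm.

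Because a 3′ library sees only the end of a transcript, and because the study concerned i-motifs (iMs, formed by C-rich DNA) and G-quadruplexes (G4s, formed by G-rich DNA) at promoters, both ends of the most abundant LINC genes are shown. The promoter windows run from 250 bases before to 50 bases after a start site, are taken from RefSeq on GRCh38.p14 and are written 5′ to 3′ on the strand of the gene. Capitals mark a putative iM- or G4-forming sequence, that is 4 tracts of at least 3 C or 3 G with loops of 0 to 7 bases, searched on both strands. The first window, of LINC01003, is at chr7:152463874-152464173 on the plus strand. The second, of LINC03026, is at chr9:88077851-88078150 on the minus strand, and the third, of LINC01976, is at chr17:43938011-43938310 on the plus strand.
LINC01003 promoter: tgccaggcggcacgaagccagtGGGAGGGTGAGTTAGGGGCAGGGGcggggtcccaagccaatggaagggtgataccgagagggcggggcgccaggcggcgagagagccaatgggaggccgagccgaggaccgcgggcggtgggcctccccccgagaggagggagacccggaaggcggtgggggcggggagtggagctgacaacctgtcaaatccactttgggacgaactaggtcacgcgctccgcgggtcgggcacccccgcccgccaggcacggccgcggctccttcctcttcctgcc
LINC03026 promoter: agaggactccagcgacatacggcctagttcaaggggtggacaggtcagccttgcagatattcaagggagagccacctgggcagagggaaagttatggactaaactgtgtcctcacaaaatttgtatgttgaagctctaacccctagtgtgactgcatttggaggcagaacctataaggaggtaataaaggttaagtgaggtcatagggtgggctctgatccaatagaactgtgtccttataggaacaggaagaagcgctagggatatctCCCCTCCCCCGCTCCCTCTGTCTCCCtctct
LINC01976 promoter: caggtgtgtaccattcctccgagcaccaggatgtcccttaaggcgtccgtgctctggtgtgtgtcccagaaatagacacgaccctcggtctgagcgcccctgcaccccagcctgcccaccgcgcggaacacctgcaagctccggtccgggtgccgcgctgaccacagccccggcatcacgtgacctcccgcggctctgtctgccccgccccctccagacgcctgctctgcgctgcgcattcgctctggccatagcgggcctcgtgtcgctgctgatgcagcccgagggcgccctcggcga

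The LINC01003 window held a match of 24 bases that begins 228 bases upstream of the RefSeq start site, with the G tracts on the strand of the gene. This window lies wholly inside the single exon that GENCODE gives for LINC01003, which starts upstream of the RefSeq start site. In the LINC03026 window, the match of 26 bases begins 19 bases after the start site and has the C tracts on the strand of the gene. No match was found in the LINC01976 window, although it held 29 CpG dinucleotides and had a GC content of 68.7%. The LINC01003 window had 28 CpGs and the LINC03026 window 4.

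The last 60 bases of the leading transcript, the one with the most counts of its gene, are given for 5 abundant LINC genes, from the GENCODE v44 transcripts on GRCh38. Capitals mark the copy of the poly(A) signal AATAAA that is nearest to the end, and LINC00324 holds a further copy upstream in lower case. This signal directs cleavage of the transcript shortly downstream of it. The transcripts lie at chr17:43938257-43938963 (plus strand, LINC01976), chr7:152463786-152465549 (plus strand, LINC01003), chr17:8220624-8224043 (minus strand, LINC00324), chr14:21200079-21205503 (minus strand, LINC00641) and chr17:48635923-48647023 (minus strand, LINC03057).
LINC01976 end: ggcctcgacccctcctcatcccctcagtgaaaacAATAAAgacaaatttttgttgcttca
LINC01003 end: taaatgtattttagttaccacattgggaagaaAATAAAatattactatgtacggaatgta
LINC00324 end: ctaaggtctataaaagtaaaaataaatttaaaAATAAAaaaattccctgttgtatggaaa
LINC00641 end: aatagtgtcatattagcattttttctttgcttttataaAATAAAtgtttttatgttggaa
LINC03057 end: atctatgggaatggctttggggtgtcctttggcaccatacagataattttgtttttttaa

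The marked signal lies 20 bases before the end in LINC01976, 22 in LINC01003, 22 in LINC00324 and 16 in LINC00641. Neither AATAAA nor ATTAAA was found in the last 50 bases of LINC03057.

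The libraries held 6262175 to 8521624 counts, and the upper limit allowed by a count of 0, taken as 3 counts, was 0.352 to 0.479 counts per 1000000. This limit and the intervals of the LINC share of counts below cover counting error only, because no molecular identifiers were used and reads may be copies of 1 molecule. The intervals of shares of genes treat genes as independent draws. They cover neither counting error nor the spread between replicates. Mitochondrial genes took 9.59% of the counts in replicate 1, 5.70% in replicate 2 and 25.8% in replicate 3. Of 7 genes listed as markers of HEK293T, the kidney transcription factors PAX2 (8.96 TPM) and LHX1 (1.66 TPM) and the keratin gene KRT8 (1.35 TPM) reached a mean of 1 TPM. VIM was at 0, 6 and 5 counts, and KRT18, NEFM and NEFL had none. Of 5 genes of other tissues, PTPRC, ALB, GFAP and HBB had no count and MYH7 had 1. Hence a count of 0 says here only that no read was assigned to any listed transcript of the gene. Likewise, a low count gives only the reads that were assigned.

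Few LINC genes were expressed in HEK293T. With expression defined as a mean of at least 1 TPM (the count divided by transcript length and scaled to a sum of 1000000 per library), 167 LINC genes were expressed, which is 7.42% of them (95% Wilson interval 6.40 to 8.57) beside 21.7% of all genes. Among the other lncRNA genes 16.3% were expressed, and among the protein-coding genes 38.2%. The lncRNA genes with other kinds of names also stood higher, with 23.1% of 1839 antisense genes (-AS), 41.3% of 589 divergent transcript genes (-DT) and 13.8% of 11826 lncRNA genes without a symbol.

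Most LINC genes had no read assigned to them. In 1533 of the 2252, or 68.1%, the count was 0 in every replicate, beside 57.1% of all genes, 58.6% of the other lncRNA genes and 36.5% of the protein-coding genes. A further 552 LINC genes had reads but a mean below 1 TPM, so that 719 had a mean above 0 TPM, a state shared by 42.9% of all genes. Much of this was at the limit of the depth, since 204 of the 719 had a single count over all replicates and 410 had at most 3 in each replicate. In single replicates, 423 to 509 LINC genes had a count and 163 to 174 reached 1 TPM.

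**Figure D1:**
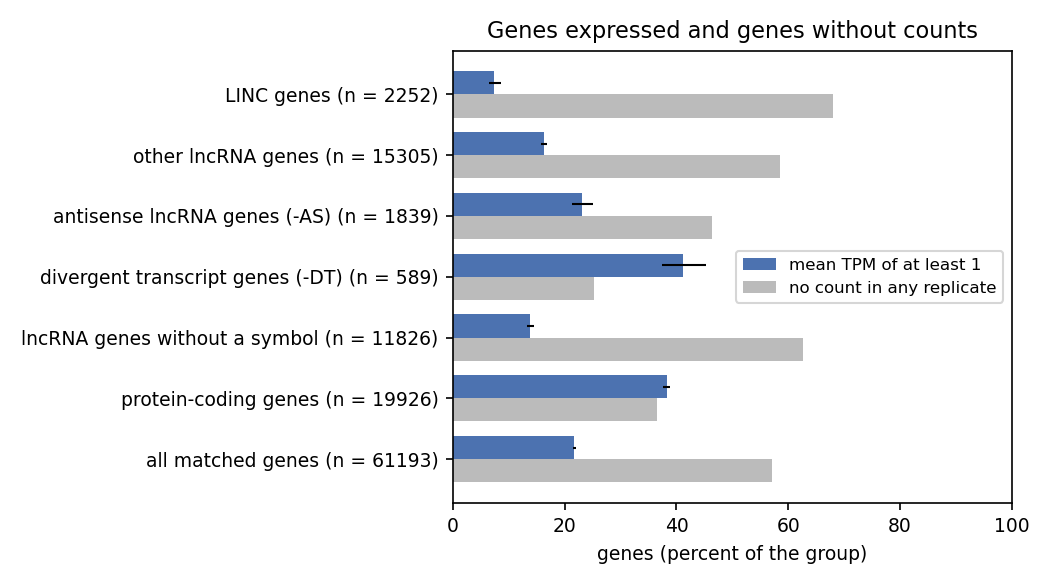
Percent of the genes of each group (bars, x axis) with a mean of at least 1 TPM (blue, with 95% Wilson intervals) and with no count in any of the 3 replicates (grey). LINC genes had the lowest expressed share, 7.42%, and the highest share without counts, 68.1%, of the groups drawn.

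The expressed LINC genes were also at low levels. Their median was 3.08 TPM, against 3.61 TPM for the expressed genes among the other lncRNA genes, 10.5 TPM for those among the protein-coding genes and 6.55 TPM for all expressed genes. Length enters these values, because a 3′ library yields reads from near the transcript end and division by length lowers long transcripts. The median canonical transcript of the expressed genes had 1257 bases for LINC, 750.5 for other lncRNA and 3543.5 for protein-coding genes. At least 10 TPM was reached by 34 LINC genes, beside 8.93% of all genes, and at least 100 TPM by 2. The 3 replicates did not always place a gene on the same side of the threshold: 116 LINC genes had at least 1 TPM in every replicate, beside 17.7% of all genes, and the other 51 were below it in at least 1 replicate.

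All expressed genes were then split by the quartiles of their mean TPM. Here 72 expressed LINC genes fell in the low category (at most 2.40 TPM), 85 in the medium and 10 in the high category (at least 24.1 TPM). These 10 were 0.444% of all LINC genes measured, beside 5.43% of all genes measured. Among expressed genes only, they were 5.99% of the LINC genes, compared with 9.37% of the other lncRNA genes and 32.8% of the protein-coding genes. For all expressed genes the share is 25%, which the quartile rule sets.

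LINC genes together took 0.116% of the counts in replicate 1, 0.113% in replicate 2 and 0.272% in replicate 3. The mean was 0.167% ± 0.0907 (SD, n = 3), and the 95% Wilson intervals of the single libraries, 0.114 to 0.119, 0.110 to 0.116 and 0.268 to 0.275, were narrow beside this spread. Most of the excess of replicate 3 was in a single gene, LINC00265. It held 0.526% and 0.0990% of the LINC counts in replicates 1 and 2 but 48.0% in replicate 3. With LINC00265 left out, the share was 0.116%, 0.113% and 0.141%, still highest in replicate 3, with a mean of 0.123% ± 0.0157 (SD, n = 3). In TPM the LINC genes held 0.152% ± 0.0355 (SD, n = 3), and 0.134% ± 0.00499 without LINC00265. The 15 LINC genes with the highest mean TPM carried 47.6% of the TPM of all LINC genes and 54.9% of their counts, taken over the replicates. With LINC00265 left out, the other 14 carried 40.4% of the TPM and 36.4% of the counts of the remaining LINC genes.

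LINC00265 (ENSG00000188185, chromosome 7, 39733430 to 39793092, plus strand) had 43, 7 and 11117 counts in replicates 1, 2 and 3. These correspond to 6.91, 1.38 and 544 TPM, and the mean of 184 TPM ± 312 (SD, n = 3), the highest of any LINC gene, therefore rests on 1 library. The excess was in 1 of the 10 listed transcripts, ENST00000666283 (3069 bases, 10 exons), which had 0, 0 and 11097 counts. The other transcripts of the gene summed to few reads, with ENST00000656645 at 41, 6 and 17 counts. Of the bases of ENST00000666283, 947 are in no other listed transcript of either strand, in a stretch of 610 bases and 1 of 337. Of its 31-base words, 37.998% also occur on the same strand in transcripts of other genes. Searched over all listed transcripts for at least 500 counts in replicate 3 and more than 20 times the mean of the others, the only further transcript was ENST00000514057 of MTATP6P1, a nuclear pseudogene of mitochondrial ATP6, with 1203, 473 and 23529 counts. The part of the mitochondrial share of replicate 3 in these values was not tested.

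The other abundant LINC genes had reads in every replicate. LINC01976 (ENSG00000261514, chromosome 17, 43938257 to 43938963, plus strand) had 185, 206 and 317 counts, or 93.9, 124 and 110 TPM. Its mean of 109 TPM ± 14.9 (SD, n = 3) was the highest of the LINC genes by TPM once LINC00265 was set aside. By counts it was not, since LINC00294 (565, 553 and 659) and LINC01003 (417, 426 and 857), among others, had more. LINC01976 has a single listed transcript of 434 bases with 2 exons, which shares no 31-base word with a transcript of another gene. Division by so short a length raises its TPM. The nearest protein-coding gene to its end is PPY, which encodes pancreatic polypeptide, 1841 bases away, and PPY had no count.

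LINC03057 (ENSG00000272763, chromosome 17, 48635923 to 48647023, minus strand) lies in the HOXB cluster, whose genes encode homeobox transcription factors of the body axis. It had 354, 412 and 505 counts, or 61.4, 84.6 and 59.9 TPM, with a mean of 68.6 TPM ± 13.8 (SD, n = 3). The gene overlaps another non-coding gene, and its end is 2351 bases from HOXB7 on the same strand. HOXB7 had 418, 431 and 476 counts and a mean of 67.5 TPM ± 15.1 (SD, n = 3), so that the LINC gene and its neighbour stood at like levels.

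LINC01003 (ENSG00000261455, chromosome 7, 152463786 to 152465549, plus strand) was the most abundant LINC gene with no other gene within 10 kb of its end. It is a single exon of 1764 bases with 417, 426 and 857 counts, or 52.1, 63.0 and 72.8 TPM, and a mean of 62.6 TPM ± 10.4 (SD, n = 3). KMT2C, a histone H3 lysine 4 methyltransferase gene 28905 bases away, was assigned 3, 2 and 5 counts. Because the rule for reads on several transcripts is not given, its level relative to LINC01003 is uncertain. LINC00992 on chromosome 5 (69, 63 and 146 counts, 28.9 TPM ± 5.77) and LINC01765 on chromosome 1 (50, 44 and 29 counts, 18.2 TPM ± 8.13) were the next such genes. Their ends are 172942 and 13183 bases from the nearest other gene, which for LINC01765 is the tetraspanin gene TSPAN2.

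LINC00294 (ENSG00000280798, chromosome 11, 33076149 to 33079454, plus strand) lies inside the body of the protein-coding gene TCP11L1 on the same strand. It had 565, 553 and 659 counts, the most of any LINC gene apart from LINC00265, and a mean of 37.1 TPM ± 6.89 (SD, n = 3), while TCP11L1 had 0, 0 and 1 counts. With genes on the same strand, reads of a host and of the LINC gene within it cannot be told apart by position, and the values of both are uncertain.

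LINC00324 (ENSG00000178977) and LINC00641 (ENSG00000258441) each begin shortly after the end of a protein-coding gene on their own strand. LINC00324 (chromosome 17, 8220624 to 8224043, minus strand) starts 772 bases downstream of CTC1, which encodes a telomere maintenance protein. Its counts were 472, 295 and 316 and its levels 49.96, 37.0 and 22.8 TPM (36.6 TPM ± 13.6, SD, n = 3). CTC1 was assigned fewer reads, 22, 30 and 47, and its level is uncertain, as for KMT2C. LINC00641 (chromosome 14, 21200079 to 21206900, minus strand) starts 2236 bases downstream of HNRNPC, an abundant pre-mRNA-binding protein gene. Here the neighbour was the higher one: LINC00641 had 537, 423 and 424 counts (18.9 TPM ± 5.95, SD, n = 3) and HNRNPC 3053, 2493 and 2387 counts (170 TPM ± 53.2, SD, n = 3). Both LINC genes had their highest count in replicate 1. CTC1 and HNRNPC were named after their values were seen.

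Among the remaining genes of the 15, LINC01023 had 55, 48 and 130 counts (33.7 TPM ± 9.51, SD, n = 3), and LINC00663 had 27, 15 and 82 (23.5 TPM ± 13.2, SD, n = 3), both highest in replicate 3. LINC00888 had 166, 161 and 323 counts (28.4 TPM ± 4.01, SD, n = 3), the end of its canonical transcript is shared with another listed transcript, and an unprocessed pseudogene entry of the same symbol ends 682 bases away. LINC02585 starts 890 bases from the start of a protein-coding gene on the other strand and had 26, 16 and 36 counts, but its transcript of 196 bases brought it to 26.0 TPM ± 4.18 (SD, n = 3). LINC03026, with 77, 58 and 112 counts, was in TPM the steadiest of the 15, at 25.03, 22.3 and 24.8 TPM. LINC02979 had 47, 61 and 71 counts and 23.3 TPM ± 5.93 (SD, n = 3), and LINC02916 had 66, 68 and 69 counts and 18.7 TPM ± 4.88 (SD, n = 3). From the fifth gene of this order to the fifteenth, the means of neighbours differed by less than the larger of their SDs. The same held for LINC03057 and LINC01003. The order of such neighbours was therefore not resolved, whereas genes further apart in rank were not compared in this way.

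**Figure D2:**
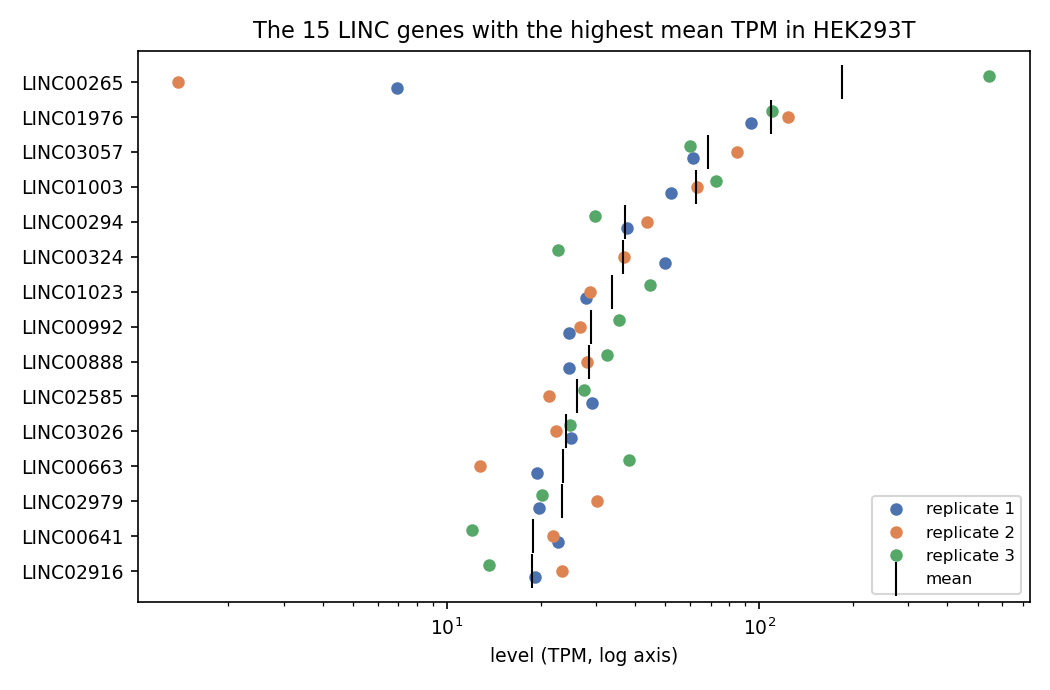
Level in TPM (x axis, log scale) of the 15 LINC genes with the highest mean, with 1 point per replicate and the mean of the 3 replicates as a black bar. LINC00265 spanned 1.38 to 544 TPM, whereas the replicates of LINC01976 lay between 93.9 and 124 TPM.

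Since division by length lowers long transcripts, the order by counts differed. Of the 10 LINC genes with the highest mean count, 8 were among the 15 highest by TPM. LINC00938 had 256, 224 and 431 counts, the seventh highest, but its single transcript of 9730 bases put it at 6.15 TPM, rank 54. LINC01521, which starts 431 bases from the start of a protein-coding gene on the other strand, had 138, 146 and 181 counts and 16.4 TPM. Across the 167 expressed LINC genes, the Spearman coefficient between mean TPM and mean counts per 1000000 was 0.79, a description across genes that come from the same libraries.

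By TPM, replicates were most alike for LINC00662, LINC01311 and LINC03026, and least for LINC00265, LINC01159 and LINC00173, among the 89 LINC genes with a mean count of at least 20. LINC00662 had 3.58, 3.92 and 3.80 TPM, a coefficient of variation (SD over mean) of 4.68%, below the 13.7% that counting alone would give on average. LINC01311 had 11.6, 11.9 and 10.6 TPM, a coefficient of 6.10%. At the other end, LINC00265 had 169%, LINC01159 (2.25, 8.43 and 3.00 TPM) had 74.0% and LINC00173 (6.90, 4.25 and 16.4 TPM) had 69.6%. The high replicate was replicate 3 for LINC00265 and LINC00173, but replicate 2 for LINC01159. The median coefficient was 27.5%, close to 25.3% over all nuclear genes above the same count. Between pairs of replicates, Pearson's r of log2(TPM + 1) over the 167 expressed LINC genes was 0.86 for replicates 1 and 2, 0.79 for 1 and 3 and 0.73 for 2 and 3, and without LINC00265 it was 0.87, 0.84 and 0.81.

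Relative to the other nuclear RNAs, most LINC genes stood higher in replicate 3. After each count was divided by the nuclear counts of its library, which sets the mitochondrial share aside, 76 of the 89 LINC genes had a higher value in replicate 3 than the mean of replicates 1 and 2. This is 85.4%, beside 62.7% of the nuclear genes and 79.3% of the other lncRNA genes with the same minimum count. The median log2 ratio was 0.74. In 74 of them replicate 3 was above both other replicates, beside 54.9% of all nuclear genes with the same minimum count, and in 6 it was below both. The median log2 ratio was 0.56 over 1192 other lncRNA genes, 0.10 over 6322 protein-coding genes and 0.16 over 8686 nuclear genes. Since the mean count includes replicate 3, genes high there pass the minimum more easily. With at least 20 counts asked of replicates 1 and 2 alone, 63 LINC genes remained and the medians were 0.57 for the LINC genes, 0.42 for 897 other lncRNA genes and 0.07 for 5841 protein-coding genes.

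The level of a gene bears on this ratio as well, and for LINC genes with a mean count from 20 to 100 it was 0.73 (n = 72), against 0.59 for other lncRNA genes (n = 905) and 0.31 for protein-coding genes (n = 2196). Replicate 3 is 1 library, whose mitochondrial share of 25.8% was the highest, so that a difference between libraries and one between the cells of the flasks cannot be told apart. LINC00265 had a log2 ratio of 8.79, LINC00173 of 2.16 and LINC00663 of 1.93, while LINC01765 at -0.74, LINC00324 at -0.31 and LINC00641 at -0.22 were lower in replicate 3. The genes that were steadiest in TPM were higher there by this measure, with LINC00662 at 0.54, LINC01311 at 0.48 and LINC03026 at 0.69.

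**Figure D3:**
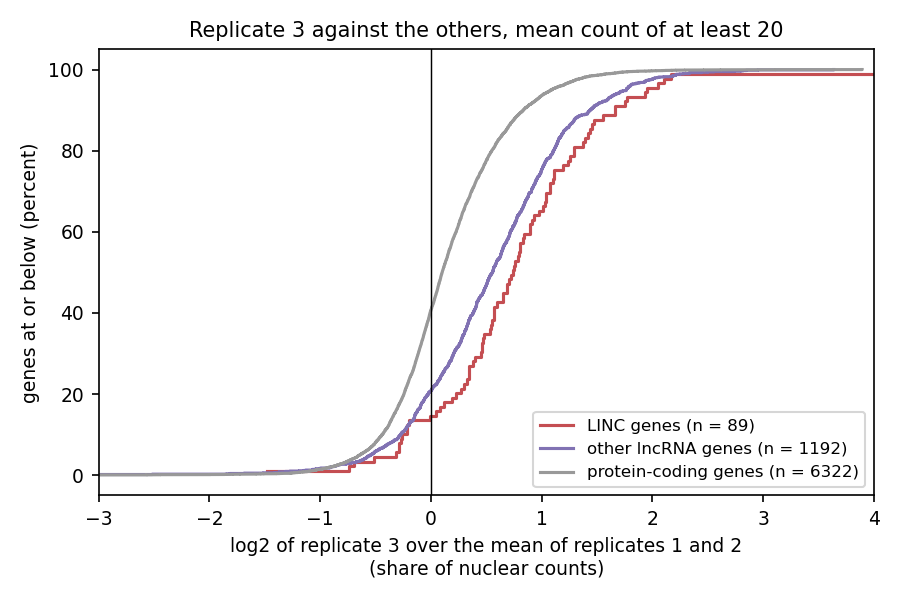
Cumulative percent of genes (y axis) by the log2 ratio of replicate 3 to the mean of replicates 1 and 2, as shares of nuclear counts (x axis), for genes with a mean count of at least 20. The curve of the 89 LINC genes lies to the right, with a median of 0.74 against 0.56 for other lncRNA and 0.10 for protein-coding genes, and LINC00265, at 8.79, is beyond the right edge.

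The name intergenic was checked against the annotation. The body of 1131 LINC genes, or 50.2%, overlaps that of another annotated gene on either strand, which goes against a strict reading of the name. Most of these overlaps are with other non-coding genes or pseudogenes, since only 151 LINC genes (6.71%) overlap a protein-coding gene. On the same strand 419 overlap another gene, and when bodies were widened by 5 kb, 1507 did. Of the expressed LINC genes 14.4% overlapped a protein-coding gene, as did 5.35% of those without counts.

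The share expressed differed with the position relative to protein-coding genes. Each LINC gene was put in 1 class, taken in the order of overlap with a protein-coding gene, overlap with any other gene, start near a protein-coding start on the other strand, start downstream of a protein-coding gene, any gene nearby, and none. Of the 44 that overlap no gene, are not in the class of starts near a protein-coding start and begin within 5 kb downstream of a protein-coding gene on the same strand, 12 (27.3%, Wilson interval 16.3 to 41.8) were expressed. Of the 97 that overlap a protein-coding gene on the opposite strand 19 (19.6%, 12.9 to 28.6) were expressed, as were 3 of the 16 that overlap no gene and start within 1 kb of a protein-coding gene's start on the other strand (18.8%, 6.59 to 43.0). Within or across a protein-coding gene on the same strand it was 5 of 54 (9.26%). The shares were 31 of 316 (9.81%) near another gene, 62 of 980 (6.33%) over a non-coding gene or pseudogene and 35 of 745 (4.70%, 3.40 to 6.46) for LINC genes with no gene within 5 kb. The intervals of the 4 classes with fewer than 100 LINC genes overlap each other. Those of the downstream class, of opposite-strand overlap and of genes near another gene (6.997 to 13.6) each lie above that of the isolated genes. So does that of the 16 that start near a protein-coding start (6.59 to 43.0). All these intervals treat genes as independent draws, and no difference between the classes was tested.

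**Figure D4:**
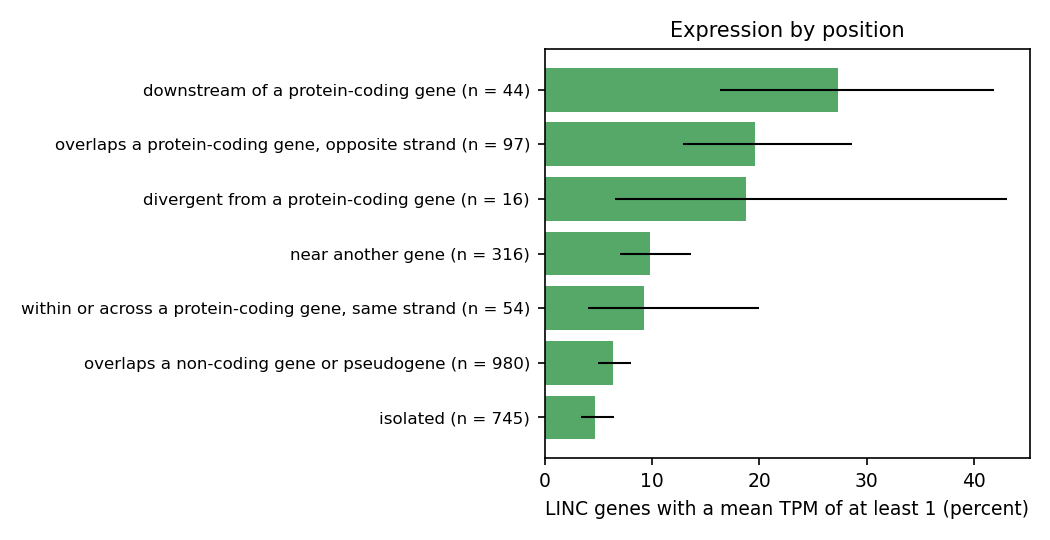
Percent of LINC genes with a mean of at least 1 TPM (x axis) by their position relative to other genes, with 95% Wilson intervals and the number of LINC genes of each class. Genes downstream of a protein-coding gene were highest at 27.3%, and isolated genes lowest at 4.70%.

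From the 3′ end of the gene, the median distance to the nearest protein-coding gene was 17603 bases for the expressed LINC genes and 94011 bases for those without counts. The nearest protein-coding gene was itself expressed for 88 of 166 expressed LINC genes (53.0%) and for 601 of 1530 without counts (39.3%). Over all LINC genes it was expressed for 41.9%, and of all protein-coding genes 38.2% were expressed. Single pairs went both ways. LINC03057 stood beside HOXB7, which was expressed, and LINC01976 beside PPY, which had no count.

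The share of expressed LINC genes also differed with the annotation of the 3′ end. Where all of the last 300 bases of the canonical transcript are in no other listed transcript of either strand, 114 of 1240 LINC genes (9.19%) were expressed. Where none of these bases is free, 26 of 511 (5.09%) were. Among the expressed LINC genes 14.97% had a canonical transcript of a single exon, against 2.28% of those without counts. Other lncRNA genes went the same way, with 39.0% and 8.47%, whereas over all genes the shares were 30.4% and 44.2%. The median length of the canonical transcript was 1257 bases for expressed LINC genes and 948 for those without counts. Summed over the expressed LINC genes, 95.5% of the counts were on the leading transcripts.

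A poly(A) signal, AATAAA or ATTAAA in the last 50 bases, was found at the canonical end of 52.1% of the expressed LINC genes and 58.8% of those without counts. Over all genes these shares went the other way, with 58.8% and 30.2%, as they did over other lncRNA genes, with 55.5% and 39.6%. At the end of the leading transcript the signal was found in 65.3% of the expressed LINC genes, beside 53.0% of all expressed genes. At least 12 As among the next 20 genomic bases followed the leading end in 11 of the 167, or 6.59%, beside 6.42% of all expressed genes. Of these 11, LINC00173 had 20 of 20 As and no signal. A stretch of As is one to which the primer of a 3′ library can also anneal.

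The promoter sequences differed along with expression. A putative iM- or G4-forming sequence lay within 1 kb on each side of the transcription start site (TSS) of the canonical transcript in 80 of the 167 expressed LINC genes (47.9%) and in 30.3% of those without counts. Over all genes the shares were 59.99% of the expressed and 37.0% of those without counts. They were 53.3% and 38.1% for other lncRNA genes and 78.5% and 62.0% for protein-coding genes. The gap is therefore not particular to LINC genes. In the same windows, the median GC content was 50.7% for expressed LINC genes and 44.03% for those without counts, and the median ratio of observed to expected CpGs 0.44 and 0.22. Other lncRNA genes differed likewise, with a GC content of 51.0% and 46.0% and a CpG ratio of 0.47 and 0.25. The share of windows with such a sequence and the GC content are measures of the same bases, so they are not independent of each other.

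The RefSeq table of promoters holds windows for 1491 LINC genes, 107 of them expressed. In these shorter windows of 300 bases, 32 of 127 windows of expressed LINC genes (25.2%) held a match, against 89 of 1118 of those without counts (7.96%) and 26.8% of all 35116 windows. Among the 15 LINC genes with the highest mean TPM, 6 had a match within 1 kb of the canonical TSS. These include LINC01976, whose shorter window above has none, and LINC01003, LINC03057 and LINC03026. LINC00992, LINC00641 and LINC00294, in turn, were abundant without a match, with GC contents of 33.2%, 38.2% and 49.4% in that window.

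**Figure D5:**
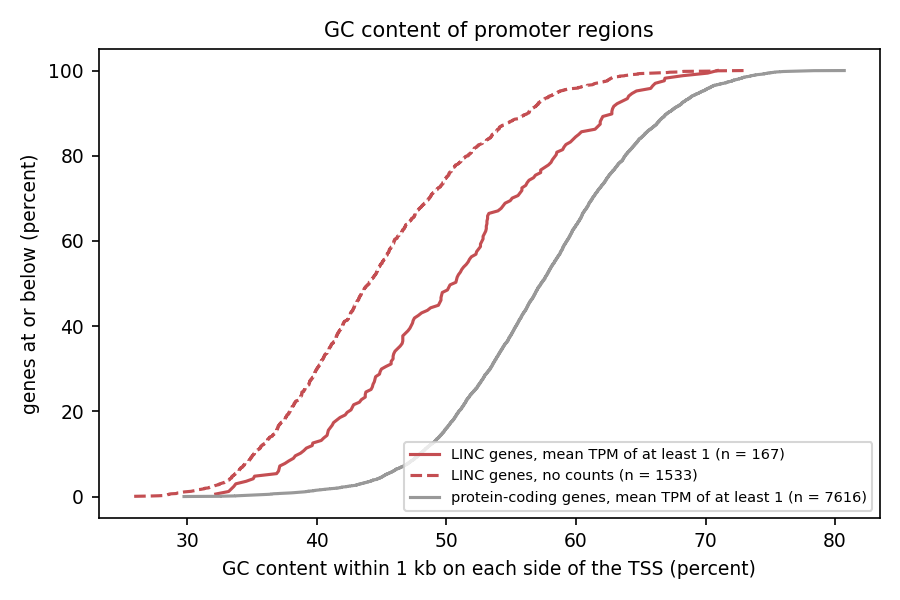
Cumulative percent of genes (y axis) by GC content within 1 kb on each side of the TSS (x axis) for expressed LINC genes, LINC genes without counts and expressed protein-coding genes. The medians were 50.7%, 44.03% and 57.3%.

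LINC genes that have been studied in other tissues were then looked up in lists. Of 24 that have been studied in tumours, 20 were matched, 9 were expressed and 6 had no count, with a median of 0.615 TPM over the 20. Over all LINC genes 7.42% were expressed and 68.1% had no count. The list was chosen with earlier results of these data known, and its difference from this share was not tested. LINC00173 was the highest at 9.18 TPM ± 6.39 (SD, n = 3), followed by LINC01234 with 26, 27 and 48 counts and 6.90 TPM ± 1.28 (SD, n = 3). LINC00662 (3.77 TPM), LINC00467 (25, 31 and 92 counts, 3.32 TPM), LINC00174 (3.08 TPM), LINC00958 (35, 20 and 23 counts, 3.05 TPM), LINC00472 (2.46 TPM), LINC00963 (2.10 TPM) and LINC00665 (1.55 TPM) were lower. LINC00472 had 114, 32 and 191 counts, and its replicate 2 was below 1 TPM. LINC00668, LINC00941, LINC01116, LINC00460, LINC00520 and LINC01089 had no count, and LINC00511 was at 5, 0 and 3 counts.

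Of 8 LINC genes known from pluripotent or germ cells, 0 were expressed and 7 had no count, among them LINC00458. Over all LINC genes 7.42% were expressed and 68.1% had no count, so that 8 genes are too few to stand apart from this share. The exception, LINC01194, had 1, 2 and 0 counts. LINC00261, which acts in the differentiation of endoderm, had a single count, in replicate 3. Counts of 0 in each library allow up to the 0.352 to 0.479 counts per 1000000 given above.

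Of 10 LINC genes known from brain, 8 were matched and 3 were expressed, beside 7.42% of all LINC genes. The list is short and was also chosen with earlier results known, and no difference was tested. LINC01551 was the highest with 55, 64 and 80 counts and 14.8 TPM ± 3.31 (SD, n = 3). Of its counts, 44.7% were on the leading one of 9 listed transcripts. LINC00632, the host of the circular RNA CDR1-AS, had 81, 77 and 168 counts and 1.53 TPM ± 0.670 (SD, n = 3). A 3′ library does not see a circular RNA without a poly(A) tail, so these counts bear on the linear transcripts of the gene. LINC00461 had 12, 17 and 13 counts and 1.12 TPM ± 0.572 (SD, n = 3), with replicates 1 and 3 below 1 TPM. LINC00844 and LINC00508 had no count.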

How the data were processed

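RNA-seq of HEK293T cells, in 3 biological replicates of 1 condition, was analysed. The submitters' processing notes name Trimmomatic 0.38.0, HISAT2 2.2.1, featureCounts 2.2.1 and hg38. The strand setting, the rule for reads on several transcripts and the annotation are not given in the sources used here. For each of 247541 transcripts the authors deposited a count, the whole number of reads on it. The TPM deposited by the authors is the count divided by the deposited transcript length, in bases, and scaled to 1000000 per library, as was checked by recomputing it.

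Transcript identifiers without version were matched to GENCODE v44 (223558 matched), and counts and TPM were summed per gene. Unmatched transcripts held 0.158% to 0.166% of the counts and stayed in the totals. SDs are over replicates. With 1 condition no test was made. The LINC genes, lists, threshold and the rule for named genes were chosen with earlier results of these data known: the 15 highest by TPM, the 10 highest by count, the 3 least and most variable, the 3 highest isolated genes, members of the lists, and the protein-coding genes nearest to the ends of the 5 highest. Lists were written from general knowledge. Other genes named after their values were seen are marked, apart from MTATP6P1, which a search found. Alternatives were other thresholds, counts per 1000000, mitochondrial genes left out, each replicate left out, other overlap rules and other sequence rules. Scripts were tested on simulated data. Python 3.11.15, pandas 2.3.3, numpy 2.4.6 and scipy 1.17.1 were used.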

Additional observations from a re-analysis of the deposited data

How the results depend on the processing

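No paired analysis was possible because there is 1 group only. A mean TPM above 0 gave 719 expressed LINC genes, a median of 0.211 TPM, 52 in the high category and a promoter iM or G4 sequence in 43.0% (54.8% of all genes expressed by that rule). A mean of at least 10 TPM gave 34, with a median of 16.7 TPM and 2 in the high category. Asking for 1 TPM in every replicate gave a median of 5.19 TPM. At least 1 count per 1000000, without division by length, gave a median of 3.46 counts per 1000000 and 6 in the high category. With mitochondrial genes left out, the share of TPM was 0.224%. By that rule 207 LINC genes were expressed and 13 were in the high category, against 167 and 10 with mitochondrial genes kept. LINC genes that overlap no other gene were 81 of the expressed ones, with 0.0657% of the counts and 0.0716% of TPM. Overlap with another gene was found for 419 on the same strand only and for 151 with protein-coding genes only. Loops of 0 to 12 bases gave a promoter sequence in 61.1% of the expressed LINC genes (44.7% without counts), and tracts of at least 2 in 99.4% (98.1%), so the latter rule no longer separates genes. Leaving out each replicate gave medians from 2.91 to 3.12 TPM, 164 to 168 expressed LINC genes, 7 to 12 in the high category and a share of counts from 0.115% without replicate 3 to 0.194% without replicate 2. Without LINC00265, chosen after seeing the data, 166 were expressed, with a median of 3.06 TPM. Of 55 alternative values, 35 moved by less than the spread between replicates or, for counts of genes, by less than 1.5 times. For the shares of counts and TPM with a replicate left out, this outcome was fixed. Such a mean cannot move by a full SD of the same replicates. The SD of the share of counts also rests on LINC00265 in replicate 3, so this limit is wide. For the values that moved more, the cause was not tested, beyond what each rule itself leaves in or out. At this depth, 1943 LINC genes had at most 3 counts in every replicate, and whether deeper sequencing would give them more was not tested.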

Other observations

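The expressed LINC genes were spread over nearly all chromosomes. Chromosome 1 held 23 of its 230, chromosome 7 held 10 of 60 and chromosome 13 held 4 of 159. On chromosome X 9 of 35 (25.7%) were expressed, the highest share of any chromosome, led by LINC01456 at 11.2 TPM and LINC00630 at 5.50 TPM, which were named after their values were seen. None of the 62 LINC genes of chromosome 20 reached a mean of 1 TPM. Over all LINC genes the share was 7.42%. The share of all genes expressed on each chromosome is not given here, so these counts do not show whether LINC genes differ from other genes there. No chromosome was chosen beforehand and no difference between them was tested.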
